A study of Homo sapiens with 8 samples.

Results

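ZR75-1 and SKBR3 are established human breast cancer cell lines, and the comparison here sets the 2 empty-vector arrays of ZR75-1 against the 2 empty-vector arrays of the cells labelled SKBR3, 4 of the 8 arrays of the series. The labels call ZR75-1 estrogen receptor positive and SKBR3 estrogen receptor negative. Cells of both lines grew in phenol-red free Optimem-I with 4% serum, were transfected 24 h after plating, using FuGene-6, with a vector lacking the HSD17B14 insert, and were collected after a further 48 h. The other 4 arrays carry the HSD17B14 plasmid, 2 in each line, and serve here as further samples of the same lines. The arrays were chosen by their titles, and all 8746 probe sets that are not Affymetrix controls, of 8793 in the table, were in the comparison. A probe set is the group of short probes that reports 1 transcript. Whether the 2 arrays of a group came from separate cultures is not given in the labels, so a p-value measures only the spread between the arrays of a group.

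Breast epithelium has an inner luminal layer and an outer basal layer. Luminal cells are held together by E-cadherin and tight junctions, carry simple keratins, and owe their identity to transcription factors such as ESR1, GATA3 and FOXA1. Mesenchymal cells lack these junctions, use vimentin filaments, make matrix and matrix-remodelling enzymes, and are governed by factors such as those of the SNAI, TWIST and ZEB families. Breast cancer lines are commonly ordered between these states, and amplification of ERBB2 on chromosome 17 marks a separate class to which SKBR3 is known to belong.

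The arrays labelled SKBR3 did not carry the ERBB2 level known for that line. ERBB2, the HER2 receptor, had signals of 25.9 and 33.8 on the SKBR3-labelled control arrays and 226.0 and 141.2 on the ZR75-1 control arrays. The ZR75-1 arrays were both higher, with a log2 difference of 2.59 ± 0.31 (standard error, n = 2 arrays per group, adjusted p = 4.4e-05 by limma with Benjamini-Hochberg adjustment, as for every adjusted p here). GRB7, the adaptor gene beside ERBB2 that is co-amplified with it, had signals of 6.8 and 14.9 on the SKBR3-labelled arrays against 67.7 and 53.4. Its log2 difference of 2.58 passed the test (adjusted p = 0.0155), but the call was lost without the first ZR75-1 control array (0.0821) or the first SKBR3-labelled control array (0.0803). Because these values go against the label, the cells are called SKBR3-labelled throughout, and no other name is given to them. HSD17B14, the gene on the plasmid, had signals of 17.8 and 2.1 in ZR75-1 controls and 2.0 and 4.2 in SKBR3-labelled controls, against 107.5 to 743.6 on the plasmid arrays, so the levels went with the transfection labels.

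Across the array the lines differed widely. Of 6251 probe sets bright enough to test, 1224 (19.6%) were called higher in ZR75-1 and 1292 (20.7%) higher in the SKBR3-labelled cells, together 2516 (40.2%) at an adjusted p under 0.05. These shares are the background for every count below. The 2 arrays of one line lay above both arrays of the other for 4141 tested probe sets (66.2%), and for all 2516 that were called. Among 5549 tested genes with 1 symbol, the median log2 difference was -0.04, and 405 were called with at least a 4-fold higher signal in ZR75-1 and 393 with at least a 4-fold higher signal in the SKBR3-labelled cells. Log2 signals correlated across probe sets at Pearson's r of 0.872 between the ZR75-1 controls and 0.889 between the SKBR3-labelled controls, and at 0.756 to 0.8 between the lines. The correlations run across probe sets, which are not independent of each other, and only describe the arrays.

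The ZR75-1 arrays, controls and plasmid arrays together, correlated with each other at 0.865 to 0.902. The first SKBR3-labelled control array stood apart from the other arrays of its line. It correlated at 0.888 to 0.889 with each of the other 3 SKBR3-labelled arrays, which correlated at 0.941 to 0.954 among themselves, and it had the smallest share of signals below 1 (2.41%). Without it, 2238 probe sets were called, 1128 higher in ZR75-1 and 1110 higher in the SKBR3-labelled cells, with the remaining control array assumed to vary like the other groups. Calls in the leading direction were then 13 luminal factors, 24 luminal secretory, 19 estrogen target, 22 junction, 29 mesenchymal marker, 21 matrix, 18 actin, 8 caveolae, 24 interferon, 19 mitosis, 11 ribosomal and 17 respiratory chain genes. The counts with all arrays stand with each list.

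Quality measures moved with the groups, in opposite directions for the actin and GAPDH controls. The 3'/5' signal ratio of the actin control probe sets, which increases as RNA is degraded or copied incompletely, was 2.033 and 2.019 on the ZR75-1 control arrays and 3.602 and 2.996 on the SKBR3-labelled ones, with no overlap. The GAPDH 3'/5' ratio went the other way, also with no overlap. It was 1.084 and 1.039 on the ZR75-1 control arrays and 0.9124 and 0.8678 on the SKBR3-labelled ones, and was not fitted as a covariate. With the actin ratio as a covariate 727 probe sets were called instead of 2516. The part of that ratio in the line differences cannot be told apart from the lines on these 4 arrays. Calls in the leading direction then numbered 15 luminal secretory, 11 estrogen target, 14 mesenchymal marker, 7 matrix, 10 actin, 6 caveolae, 16 interferon, 8 mitosis, 1 ribosomal and 3 respiratory chain genes. On the plasmid arrays the actin ratios of the lines overlapped, at 2.83 and 2.663 in ZR75-1 and 2.281 and 3.091 in the SKBR3-labelled cells. There 1645 of the 2516 were called again in the same direction.

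Luminal transcription factors and receptors were higher in ZR75-1. Of 18 tested members 15 (83.3%) were called higher in ZR75-1 and 0 higher in the SKBR3-labelled cells, with a median log2 difference of 2.13. ESR1, the estrogen receptor, had signals of 341.6 and 225.0 in ZR75-1 and 24.4 and 14.9 in the SKBR3-labelled cells. That is a log2 difference of 3.86 ± 0.34 (adjusted p = 3.94e-06) and goes the way of the receptor labels. GATA3, which specifies the luminal lineage, had 1638.8 and 1352.7 against 416.4 and 284.0. GATA3 was thus 4.33-fold higher in ZR75-1 (adjusted p = 5.35e-06) and lay well above the floor of measurable signal on both SKBR3-labelled arrays. FOXA1, the factor that opens chromatin for the estrogen receptor, had 122.5 and 112.7 against 33.4 and 8.9 (log2 2.77 ± 0.52, adjusted p = 0.00131).

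The AP-2 factors, regulators of luminal and HER2 genes, differed in the size of their gaps. TFAP2B had signals of 345.9 and 328.6 in ZR75-1 and 2.0 and 4.9 in the SKBR3-labelled cells. Where both arrays of a line lay under 17.6, the highest of the arrays' 40th percentiles and used here as a common floor, the fold is given as a minimum computed from that floor. TFAP2B was at least 19.2-fold higher in ZR75-1. TFAP2A had 311.0 and 268.7 against 23.1 and 24.2, a 12.2-fold difference. TFAP2C had 194.0 and 224.5 against 60.8 and 36.4, a 4.44-fold difference. All 3 passed the test, with adjusted p between 5.02e-07 and 2.94e-05. Of the other members, ELF3, an epithelial ETS factor, was 7.42-fold higher, ERBB3, the partner receptor of HER2, 9.24-fold, XBP1, the secretory stress factor, 4.33-fold, TRPS1, a GATA-type repressor, 4.03-fold, and SPDEF, an ETS factor of secretory cells, 3.52-fold higher in ZR75-1.

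Some calls on the luminal list were fragile. MSX2, EHF, MYB and RARA were called higher in ZR75-1 with adjusted p of 0.0288, 0.0296, 0.0294 and 0.0182. Each lost its call without at least 1 control array. MSX2 reached 0.194 without the first SKBR3-labelled control and 0.1 without either ZR75-1 control. EHF reached 0.102 without the second SKBR3-labelled control, and 0.097 and 0.0745 without the first and second ZR75-1 control. MYB reached 0.168 without the second SKBR3-labelled control, and 0.127 and 0.0595 without the first and second ZR75-1 control. RARA reached 0.113 without the first SKBR3-labelled control and 0.0927 without the first ZR75-1 control. PRLR, BHLHE40 and KLF5 did not pass. BHLHE40, a clock-linked repressor, read 111.8 and 120.2 against 98.7 and 100.4, and KLF5, a factor of epithelial progenitors, overlapped between the lines. PGR, the progesterone receptor and an estrogen target, read between 2.4 and 9.7 on all 4 arrays, under the floor, and was not tested. ELF5 of the same list read 26.1 and 10.2 in the SKBR3-labelled cells and 1.1 and 1.2 in ZR75-1. Its arrays did not overlap, and it was not tested. ERBB4, CITED1 and INSM1 overlapped between the lines and were not tested. ZEB1, GREB1 and FN1 were not analysed here.

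Estrogen receptor target genes were mostly higher in ZR75-1, as the receptor was. Of 30 tested, 20 (66.7%) were called higher in ZR75-1 and 1 higher in the SKBR3-labelled cells, with a median log2 difference of 1.65. HSPB8, a small heat shock protein, had signals of 613.2 and 735.9 against 10.3 and 21.2. CTSD, the lysosomal protease cathepsin D, had 845.9 and 697.7 against 70.1 and 31. SLC7A5, a carrier of large amino acids, had 1718.5 and 1535.5 against 161.4 and 134.3. Log2 differences were 5.51 ± 0.33, 4.04 ± 0.30 and 3.46 ± 0.17, all in favour of ZR75-1. IGFBP4, which binds insulin-like growth factors, went the other way with 247.4 and 234.7 in ZR75-1 and 817.8 and 668.1 in the SKBR3-labelled cells (log2 -1.62 ± 0.17, adjusted p = 1.65e-05). TFF1, a secreted trefoil peptide and the classical estrogen-induced transcript, was bright in both lines. It had 1874.1 and 2114.5 in ZR75-1 and 962.4 and 987.9 in the SKBR3-labelled cells, 2.04-fold apart (adjusted p = 0.000109).

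Secreted and surface products of luminal cells gave the widest gaps in favour of ZR75-1. Of 28 tested, 23 (82.1%) were called higher in ZR75-1 and 1, the insulin receptor substrate IRS1, higher in the SKBR3-labelled cells. The median log2 difference was 2.54, or 2.18 with all signals raised to the floor. SCGB2A2, the secretoglobin mammaglobin A, had signals of 2844.9 and 3302.9 in ZR75-1 and 12.4 and 0.2 in the SKBR3-labelled cells, at least 174-fold apart. SCGB1D2, the secretoglobin that pairs with it, had 584.6 and 598.5 against 1.7 and 0.5, at least 33.6-fold apart. Both sit on chromosome 11, and both were under the floor on each SKBR3-labelled array.

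The 250 bases before the start of each of these secretoglobin genes are shown because the pair had some of the largest gaps of the comparison and lie near each other on the plus strand. They are from RefSeq, build GRCh38.p14, at chr11:62269908-62270157 for SCGB2A2 and chr11:62241989-62242238 for SCGB1D2, written 5′ to 3′ with capitals for the forkhead motif TGTTTNC on either strand.
SCGB2A2: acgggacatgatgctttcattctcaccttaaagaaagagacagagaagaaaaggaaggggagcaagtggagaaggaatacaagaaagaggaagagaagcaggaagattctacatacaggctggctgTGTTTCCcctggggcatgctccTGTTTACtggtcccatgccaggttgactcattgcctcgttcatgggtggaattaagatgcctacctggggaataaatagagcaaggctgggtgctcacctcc
SCGB1D2: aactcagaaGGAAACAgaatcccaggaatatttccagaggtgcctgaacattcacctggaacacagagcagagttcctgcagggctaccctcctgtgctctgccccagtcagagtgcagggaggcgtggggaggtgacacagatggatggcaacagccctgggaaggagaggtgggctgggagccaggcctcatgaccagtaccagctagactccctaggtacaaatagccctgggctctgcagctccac
Forkhead letters occurred 2 times before SCGB2A2 and 1 time before SCGB1D2. Motif shares were counted over the same 250 bases for called genes of 3 lists with a promoter entry: 18 luminal secretory, 12 junction and 25 mesenchymal marker genes. The forkhead motif was in 11.1%, 8.33% and 12% of them, against 10.2% of 4613 tested genes and 15.6% of 27305 promoters. The GATA motif AGATAA was in 11.1%, 8.33% and 0.0% (5.48% of tested genes, 9.37% of promoters). The AP-2 motif GCCNNNGGC was in 27.8%, 41.7% and 20% (26.3% and 19.7%). The E-box CAGGTG was in 38.9%, 8.33% and 12% (15.1% and 17.5%), and the AP-1 motif TGANTCA in 11.1%, 8.33% and 4.0% (4.64% and 6.6%). Both strands were searched, a base could count for more than 1 of these 5 motifs, and the shares are descriptions of small lists, made after the expression values were seen.

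MUC1, the transmembrane mucin of the apical surface, had signals of 1348.3 and 1034.3 in ZR75-1 and 9.5 and 15.1 in the SKBR3-labelled cells, at least 67.1-fold apart. AZGP1, a secreted zinc-binding glycoprotein, had 548.4 and 578.3 against 0.9 and 7.7. CA12, an estrogen-regulated carbonic anhydrase, had 1680.2 and 1710.6 against 48.3 and 46.2 (log2 5.17 ± 0.14, adjusted p = 7.81e-10). The arrays of the lines were far apart for all 3 genes. TFF3, a second trefoil peptide, was 33.9-fold higher in ZR75-1 and PIP, the prolactin-inducible protein, 14.4-fold. AGR2, a disulfide isomerase of secretory cells, had 2576.4 and 2940.6 against 225.3 and 340.5, so it was 9.94-fold lower in the SKBR3-labelled cells but far above the floor there.

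Keratins split by gene. KRT8 had signals of 2351.9 and 2529.6 in ZR75-1 and 360.3 and 420.2 in the SKBR3-labelled cells, KRT19 had 3721.7 and 4300.7 against 793.6 and 652.4, and KRT18 had 9014.7 and 9893.8 against 4602.3 and 3154.2. These simple-epithelial keratins were 6.27-fold, 5.56-fold and 2.48-fold higher in ZR75-1, with adjusted p between 9.1e-08 and 0.000318. KRT7, the other simple keratin measured, was 2.1-fold higher in the SKBR3-labelled cells, with 180.0 and 193.4 against 72.9 and 108.2 (adjusted p = 0.00303). The basal and stratified list held 10 keratins on the array, 4 of them tested, and 0 were called in either direction. KRT5 and KRT14, which mark basal cells, read between 0.9 and 13.2 on the 4 arrays, under the floor throughout. KRT15 of the same list read 19.8 and 43.4 in ZR75-1 and was under the floor on both SKBR3-labelled arrays. Its arrays did not overlap, but it did not pass (log2 1.62, adjusted p = 0.0802). KRT10 was above the floor on all 4 arrays, between 224.1 and 410.9, and overlapped between the lines. KRT1 and KRT2 did not pass either.

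**Figure D1:**
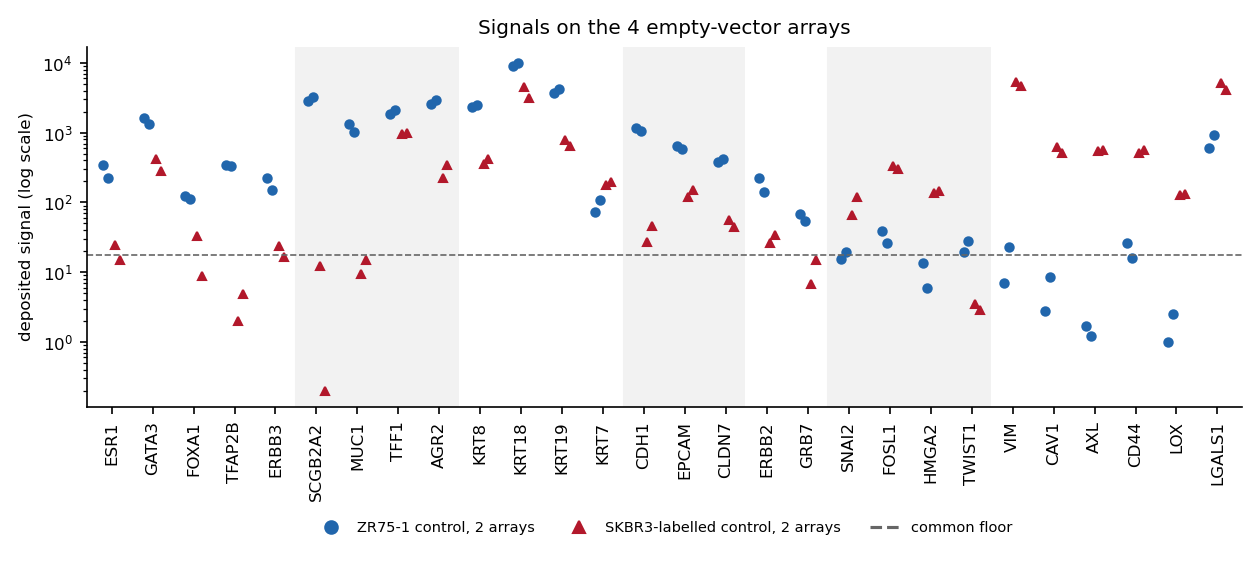
Deposited signals on a log axis for 28 genes on the 4 empty-vector arrays, with circles for the 2 ZR75-1 arrays, triangles for the 2 SKBR3-labelled arrays and a dashed line at the common floor of 17.6. Luminal genes are high in ZR75-1 and several, such as TFF1, GATA3, KRT18 and AGR2, stay well above the floor in the SKBR3-labelled cells, while VIM, CAV1 and AXL are bright only there.

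Cell junction genes were mostly higher in ZR75-1, with DSP, DSG2 and CTNNB1 called the other way. Of 38 tested members of the junction and adhesion list, 24 (63.2%) were called higher in ZR75-1 and 3 (7.89%) higher in the SKBR3-labelled cells, with a median log2 difference of 1.61. CDH1, E-cadherin, had signals of 1173.3 and 1074.7 in ZR75-1 and 26.8 and 45.7 in the SKBR3-labelled cells. Both SKBR3-labelled arrays stayed above the floor, and the lines were 32.1-fold apart (adjusted p = 2.8e-08). The tight junction claudin CLDN3 had 363.6 and 425.0 against 13.5 and 7.3, and CLDN7 had 383.0 and 419.8 against 55.7 and 44.0. SPINT1, an inhibitor of membrane serine proteases, had 395.5 and 347.3 against 8.9 and 2.9, at least 21.1-fold apart.

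EPCAM, the epithelial adhesion molecule, had 639.6 and 591.5 in ZR75-1 and 119.4 and 149.0 in the SKBR3-labelled cells, a 4.61-fold difference. JUP, the plakoglobin shared by adherens junctions and desmosomes, was 6.97-fold higher in ZR75-1. PPL, a plakin, and PKP3, a plakophilin of desmosomes, were 11.1-fold and 2.05-fold higher there. DSP, desmoplakin, was instead higher in the SKBR3-labelled cells, with 311.9 and 239.9 against 175.1 and 130.2 (log2 -0.86 ± 0.22, adjusted p = 0.00759). DSG2, a desmosomal cadherin, was also higher there (log2 -0.66, adjusted p = 0.0343), as was CTNNB1, beta-catenin (log2 -0.61, adjusted p = 0.0496). PKP3, DSP, DSG2 and CTNNB1 lie outside the naming rule and were chosen after their values were seen. Their calls were not recomputed with single arrays left out. CTNNA1 and TJP1, alpha-catenin and the scaffold ZO-1, also chosen after their values were seen, overlapped between the lines, with log2 differences of -0.08 and -0.18.

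Transcription factors of the mesenchymal state were mixed. Of 15 tested, 6 (40%) were called higher in the SKBR3-labelled cells and 3 (20%) higher in ZR75-1, and 8 of 25 on the array lay under the floor on all 4 arrays. FOSL1, an AP-1 subunit of invasive cells, had signals of 330.1 and 300.2 in the SKBR3-labelled cells and 39.3 and 25.8 in ZR75-1 (log2 -3.31 ± 0.25, adjusted p = 1.28e-06). HMGA2, a chromatin protein of mesenchymal and embryonic cells, had 136.1 and 144.8 against 13.5 and 5.9. SNAI2, the repressor Slug, had 65.5 and 119.8 against 15.3 and 19.5 (log2 -2.36 ± 0.51, adjusted p = 0.00299). The arrays of the lines did not overlap for these 3 genes. MEF2C, SOX9 and TCF12 were also higher in the SKBR3-labelled cells. MEF2C, under the floor on both ZR75-1 arrays, was at least 3.45-fold higher, SOX9 2.19-fold and TCF12 2.2-fold.

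SNAI1, ZEB2, FOXC2, PRRX1 and RUNX2 read between 1.2 and 17.1 on the control arrays of both lines, under the floor, and were not tested. TWIST1, a basic helix-loop-helix factor of the same group, was called higher in ZR75-1, with 19.2 and 28.2 against 3.5 and 2.9 (adjusted p = 0.0487). It lost the call in 15 of 20 alternative analyses, among them 7 of the 8 that left out 1 array, the first SKBR3-labelled plasmid array being the exception. The highest adjusted p, 0.181, came without the second ZR75-1 control. TEAD4, a partner of the coactivator YAP, was higher in ZR75-1 (2.5-fold, adjusted p = 0.000729). SOX4 was called there too (1.91-fold), but not without the first ZR75-1 control (adjusted p = 0.147) or the first SKBR3-labelled control (0.195). FOXF2, KLF4, TEAD1, GLI3, ETS1 and PITX1 did not pass.

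Structural and secreted markers of mesenchymal cells were higher in the SKBR3-labelled cells. Of 41 tested, 30 (73.2%) were called higher there and 2 (4.88%), UCHL1 and CYP1B1, higher in ZR75-1. The median log2 difference was -3.25, or -2.02 with all signals raised to the floor. VIM, the intermediate filament vimentin, had signals of 5325.8 and 4637.6 in the SKBR3-labelled cells and 6.9 and 23.2 in ZR75-1 (log2 -8.62 ± 1.06, adjusted p = 5.82e-05). With the ZR75-1 arrays raised to the floor, the VIM difference was still -7.94, the largest in that direction among the called genes. CAV1, the coat protein of caveolae, had 620.0 and 517.3 against 2.8 and 8.5, at least 32.2-fold apart. AXL, a receptor tyrosine kinase linked to invasion, had 540.3 and 561.2 against 1.7 and 1.2, at least 31.3-fold apart.

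CD44, the hyaluronan receptor, had 503.8 and 569.9 in the SKBR3-labelled cells and 26.2 and 16.1 in ZR75-1 (log2 -4.71 ± 0.27). IGFBP7, a secreted growth factor binding protein, was at least 50.9-fold higher in the SKBR3-labelled cells and PLAU, the urokinase that activates plasmin, at least 17.5-fold. LGALS1, galectin-1, was bright in both lines, with 5185.0 and 4044.5 against 597.2 and 943.2. Genes of the smooth muscle contractile apparatus were divided. CALD1, MYL9 and CNN3, which regulate or form part of the actomyosin system, were called higher in the SKBR3-labelled cells, with adjusted p of 0.00214, 0.00622 and 0.00234. ACTA2, smooth muscle actin, overlapped between the lines (log2 0.19), and TAGLN did not pass. THY1, a surface protein of fibroblasts, did not pass either. CDH2, N-cadherin, read 21.1 and 0.7 in the SKBR3-labelled cells and 6.0 and 0.8 in ZR75-1 and was not tested. Genes on the mesenchymal list such as VIM, CD44 and LGALS1 are made by several cell types.

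**Figure D2:**
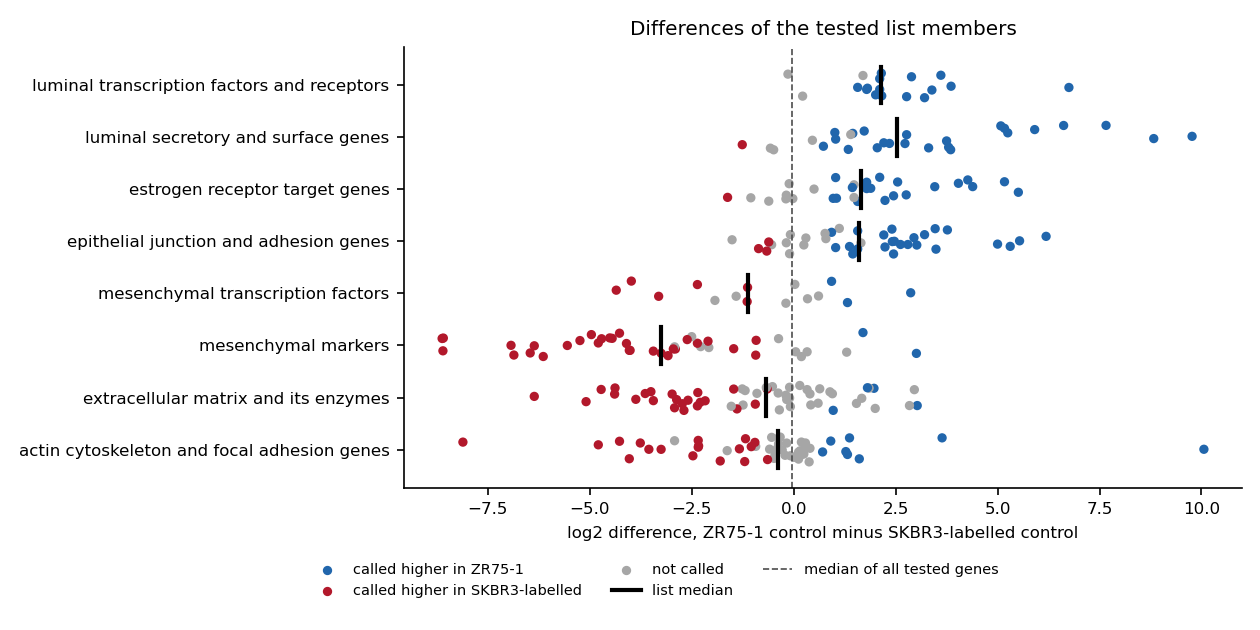
Log2 difference of ZR75-1 control minus SKBR3-labelled control for each tested member of 8 lists, coloured by call, with a black bar at each list's median and a dashed line at the median of all tested genes (-0.04). The medians of the luminal and junction lists lie between 1.61 and 2.54, that of the mesenchymal markers at -3.25, and the points farthest from the actin list's median, CRIP1 and CSRP2, rest on signals under the floor in one line, where the fold is known only as at least 95.6 and at least 16.5.

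Matrix genes were divided. Of 55 tested, 23 (41.8%) were called higher in the SKBR3-labelled cells and 4 (7.27%) higher in ZR75-1, with a median log2 difference of -0.67. LOX, which crosslinks collagen and elastin, had signals of 128.2 and 131.4 against 1.0 and 2.5, at least 7.37-fold apart. COL13A1, a transmembrane collagen, had 310.5 and 284.1 against 5.8 and 13.2, at least 16.9-fold apart. LAMB3, a laminin chain of epithelial basement membrane, had 351.8 and 287.9 against 39.4 and 41.2, a 7.9-fold difference. All were higher in the SKBR3-labelled cells, as were the protease inhibitor TIMP1 (4.51-fold) and the membrane protease ADAM9 (6-fold). The fibrillar collagen COL1A1 was called higher in ZR75-1 at low signals of 50.4 and 33.6 against 14.4 and 7.7 (adjusted p = 0.0394). That call was lost without the first (0.162) or second (0.0626) ZR75-1 control, the second SKBR3-labelled control (0.155), or the second ZR75-1 plasmid array (0.0543).

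Integrins and matrix receptors were closer to the background, with 5 of 20 tested (25%) called higher in the SKBR3-labelled cells and 3 (15%) in ZR75-1. ITGA2, the collagen-binding alpha-2 subunit, had 75.7 and 137.8 in the SKBR3-labelled cells and 18.7 and 29.4 in ZR75-1 (log2 -2.12 ± 0.39, adjusted p = 0.00103). ITGAE, the alpha-E subunit that binds E-cadherin, was 2.68-fold higher in the SKBR3-labelled cells. CD9, a tetraspanin partner of integrins, was 3.43-fold higher in ZR75-1, with 677.1 and 710.5 against 172.7 and 236.5.

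Actin-binding and focal adhesion genes held large differences in both directions. Of 52 tested, 18 (34.6%) were called higher in the SKBR3-labelled cells and 8 (15.4%) in ZR75-1. Among the members called higher in the SKBR3-labelled cells, MSN, MYL9, CALD1 and CNN3 are also on the mesenchymal marker list. CRIP1, a small LIM-domain protein, had signals of 1415.1 and 2002.2 in ZR75-1 and 1.9 and 1.3 in the SKBR3-labelled cells, at least 95.6-fold apart. CSRP2, a LIM protein of smooth muscle, showed the reverse, with 0.6 and 1.1 against 265.5 and 317.2. CORO1C, a coronin of motile cells, had 67.8 and 92.2 in ZR75-1 and 1236.0 and 923.3 in the SKBR3-labelled cells, a 13.5-fold difference. CAPG, which caps actin filaments, was 11.7-fold higher in the SKBR3-labelled cells and the crosslinker ACTN1 3.49-fold. PFN2 and CRIP2 were higher in ZR75-1, by 3.05-fold and 12.5-fold.

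Caveolae and annexin genes divided between members higher in the SKBR3-labelled cells and members that did not pass. Of 20 tested, 10 (50%) were called higher in the SKBR3-labelled cells, 1, ANXA4, higher in ZR75-1, and 9 did not pass, with a median log2 difference of -0.55. CAV1, CAV2 and ANXA1 are also on the mesenchymal marker list. CAV2, the partner of CAV1, had 139.9 and 171.1 in the SKBR3-labelled cells and 8.8 and 10.5 in ZR75-1, at least 8.79-fold apart. The calcium-dependent membrane binders ANXA1, ANXA3 and ANXA5 were 7.74-fold, 10.1-fold and 6.23-fold higher in the SKBR3-labelled cells. ANXA2 had 7854.4 and 5895.6 against 1994.1 and 2289.4, while its partner S100A10 had 3746.6 and 3215.4 against 3228.7 and 3736.5, with overlapping arrays and a log2 difference of 0.00 ± 0.16.

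The S100 proteins, small calcium sensors, were called in both directions. Of 14 tested, 6 (42.9%) were called higher in ZR75-1 and 3 (21.4%) higher in the SKBR3-labelled cells. The share on the SKBR3-labelled side was near the background of 20.7%. S100A8 had signals of 1941.7 and 2755.5 in ZR75-1 and 0.7 and 13.2 in the SKBR3-labelled cells, and its partner S100A9 had 1100.8 and 1202.2 against 7.4 and 11.1. They were at least 131-fold and 65.4-fold higher in ZR75-1. S100A7, S100A14, S100P and S100A11 went the same way. S100A2, S100A4 and S100A6 were higher in the SKBR3-labelled cells, S100A2 with 291.2 and 352.3 against 6.8 and 29.0.

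**Figure D3:**
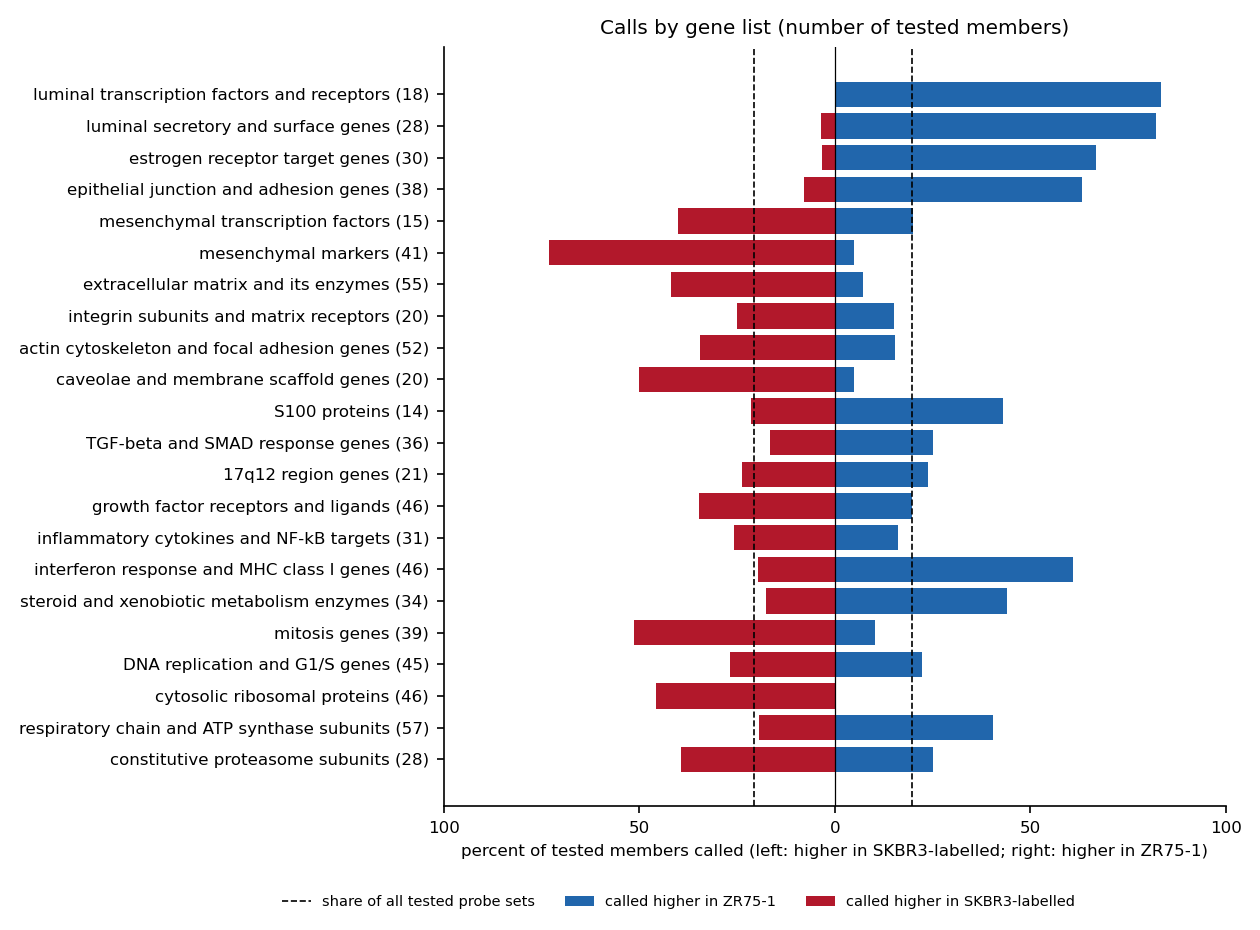
Percent of tested members called higher in ZR75-1 (right, blue) and in the SKBR3-labelled cells (left, red) for each list with at least 14 tested members, whose number stands in brackets, with dashed lines at the shares of all tested probe sets (19.6% and 20.7%). The luminal lists reach 83.3% on the ZR75-1 side and the mesenchymal markers 73.2% on the other, while the 17q12 list has 23.8% on each side.

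Growth factor systems differed in their ligands and receptors. Of 46 tested, 16 (34.8%) were called higher in the SKBR3-labelled cells and 9 (19.6%) in ZR75-1. Among ligands, PDGFC, a platelet-derived growth factor, had signals of 1047.0 and 998.6 in the SKBR3-labelled cells and 22.9 and 35.2 in ZR75-1, a 36-fold difference. VEGFC, a lymphatic growth factor, was 10.2-fold higher in the SKBR3-labelled cells. Among receptors, ERBB2 and ERBB3 were higher in ZR75-1 and AXL in the SKBR3-labelled cells. EGFR read 16.5 and 21.4 in ZR75-1 and 15.1 and 19.4 in the SKBR3-labelled cells, overlapping and near the floor (log2 0.13 ± 0.54). The binding proteins of insulin-like growth factors divided. IGFBP2 had 839.1 and 598.3 in ZR75-1 against 1.4 and 0.7, and IGFBP1 had 1.7 and 1.3 against 183.2 and 161.3, at least 40.3-fold and 9.77-fold apart in opposite directions.

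The TGF-beta list had 9 of 36 tested members (25%) called higher in ZR75-1 and 6 (16.7%) in the SKBR3-labelled cells, near the background on both sides. TGFBR2, the type II receptor, had signals of 197.4 and 201.7 in the SKBR3-labelled cells and 9.9 and 8.0 in ZR75-1, at least 11.3-fold apart. The matricellular targets CCN1 and CCN2 were higher in the SKBR3-labelled cells, CCN1 with 676.1 and 597.7 against 40.6 and 24.9 and CCN2 with 367.7 and 571.9 against 15.6 and 0.8. ID2 and ID3, inhibitors of helix-loop-helix factors that BMP signals induce, were higher in ZR75-1, with 274.2 and 333.8 against 5.8 and 21.1 for ID2 and 431.6 and 485.9 against 38.1 and 32.3 for ID3. SMAD1, the BMP effector, was 4.99-fold higher in ZR75-1.

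Inflammatory genes were called in both directions, 8 of 31 tested (25.8%) higher in the SKBR3-labelled cells and 5 (16.1%) in ZR75-1. Both shares were near the background. CXCL8, the neutrophil chemokine interleukin-8, had signals of 128.9 and 219.2 in the SKBR3-labelled cells and 0.6 and 0.5 in ZR75-1, at least 9.55-fold apart. IL6 had 53.8 and 63.9 against 12.6 and 19.2. NFKBIA, the NF-kB inhibitor, was higher in ZR75-1, with 879.8 and 971.5 against 315.5 and 274.9. CCL5, a T-cell chemokine, was 5.78-fold higher in ZR75-1.

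Genes in and near the 17q12 region, where the ERBB2 amplicon lies, were called in both directions. Of 21 tested, 5 (23.8%) were called higher in ZR75-1 and 5 (23.8%) in the SKBR3-labelled cells, with a median log2 difference of -0.12. Both shares were near the background. Beside ERBB2 and GRB7, PIP4K2B, RARA and PSMD3 were higher in ZR75-1. MED1, LASP1, TOP2A, CDC6 and IGFBP4 were higher in the SKBR3-labelled cells, MED1, a subunit of the Mediator complex, with 183.4 and 187.5 against 77.1 and 57.3. STARD3, a cholesterol carrier that lies beside ERBB2, read 34.8 and 27.5 in the SKBR3-labelled cells and 26.6 and 30.3 in ZR75-1, with overlapping arrays (adjusted p = 0.837). PSMB3, SMARCE1, PCGF2, RPL19, CDK12, THRA, NEUROD2, CACNB1, PNMT and RAPGEFL1 did not pass. CDC6 and PSMD3 each lost their call when any 1 of the 4 control arrays was left out, with adjusted p up to 0.118 and 0.0866, both without the second ZR75-1 control, and CDC6 also without either SKBR3-labelled plasmid array (0.0676 and 0.0678). RARA lost it without the first control array of either line (0.0927 and 0.113), as GRB7 did (0.0821 and 0.0803).

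Steroid and xenobiotic enzymes had 15 of 34 tested (44.1%) called higher in ZR75-1 and 6 (17.6%) in the SKBR3-labelled cells. HSD17B1, which reduces estrone to estradiol, had signals of 54.2 and 49.0 in ZR75-1 and 2.4 and 1.4 in the SKBR3-labelled cells. HSD17B11, which oxidises androgen metabolites and lipid substrates, had 0.7 and 0.6 against 357.3 and 391.5, at least 21.3-fold higher in the SKBR3-labelled cells. SULT1A1, a phenol sulfotransferase, was 8.21-fold higher in ZR75-1, and GSTP1, a glutathione transferase, 3.64-fold higher in the SKBR3-labelled cells. ALDH3B2 and EPHX1, an aldehyde dehydrogenase and an epoxide hydrolase, were bright in ZR75-1, ALDH3B2 with 676.6 and 703.6 against 15.1 and 12.1.

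Interferon-response and antigen-presentation genes were mostly higher in ZR75-1 on the empty-vector arrays. Of 46 tested, 28 (60.9%) were called higher in ZR75-1 and 9 (19.6%) in the SKBR3-labelled cells, with a median log2 difference of 0.87. MX1, an antiviral GTPase, had signals of 1758.7 and 1721.7 in ZR75-1 and 498.1 and 454.9 in the SKBR3-labelled cells. USP18, which removes ISG15, had 546.2 and 569.2 against 67.0 and 47.3. OAS1, which makes the activator of RNase L, had 506.8 and 561.7 against 81.5 and 62.2. Fold differences were 3.66, 9.9 and 7.49. IFI16, a DNA sensor, and IFITM3, which blocks viral entry, went the other way, IFI16 with 25.8 and 30.6 against 272.1 and 244.0.

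That pattern did not hold on the plasmid arrays. There 12 of the 46 were called higher in ZR75-1 and 13 in the SKBR3-labelled cells, with a median log2 difference of -0.01. MX1 read 1586.3 and 1486.9 in ZR75-1 and 1766.8 and 1751.1 in the SKBR3-labelled cells on those arrays. A test of the change in the line difference between empty-vector and plasmid arrays passed for 39 of 6251 probe sets (0.624%), and 16 of these were on the interferon list, MX1 among them (adjusted p = 0.00106). The count of 39 was 19 and 11 without the first and second ZR75-1 plasmid array, 5 and 10 without the first and second SKBR3-labelled plasmid array, and 25 without the first ZR75-1 control. It was 7 with median centring and 0 both with the actin ratio as a covariate and with a prior not dependent on the mean.

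Genes of mitosis were more often higher in the SKBR3-labelled cells, 20 of 39 tested (51.3%) against 4 (10.3%) in ZR75-1, with a median log2 difference of -0.58. NDC80, a kinetochore protein, had signals of 346.0 and 433.8 in the SKBR3-labelled cells and 73.2 and 77.0 in ZR75-1. BUB1, a spindle checkpoint kinase, had 238.8 and 228.1 against 46.8 and 45.3, and KIF20A, a cytokinesis motor, had 408.9 and 439.0 against 91.8 and 93.8. Those were 5.16-fold, 5.07-fold and 4.57-fold differences, with adjusted p between 1.03e-06 and 2.61e-06. HMMR, the hyaluronan-mediated motility receptor of the spindle, was 3.19-fold higher in ZR75-1. DNA replication and G1/S genes had 12 of 45 (26.7%) higher in the SKBR3-labelled cells and 10 (22.2%) in ZR75-1, near the background.

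Respiratory chain and ATP synthase subunits had 23 of 57 tested (40.4%) called higher in ZR75-1 and 11 (19.3%) in the SKBR3-labelled cells. The median log2 difference was 0.25. The count of 23 was 13 with a prior not dependent on the mean and 3 with the actin ratio as a covariate. NDUFA9, a complex I subunit, had signals of 915.8 and 857.0 against 250.7 and 239.0, a 3.62-fold difference. LDHB, the lactate dehydrogenase subunit of oxidative tissues, had 66.0 and 67.3 in ZR75-1 and 2450.1 and 2682.8 in the SKBR3-labelled cells, a 38.5-fold difference (log2 -5.27 ± 0.13, adjusted p = 7.81e-10). Proteasome subunits had 11 of 28 (39.3%) higher in the SKBR3-labelled cells and 7 (25%) in ZR75-1.

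Cytosolic ribosomal protein genes had 21 of 46 tested (45.7%) called higher in the SKBR3-labelled cells and 0 in ZR75-1, with a median log2 difference of -0.38. RPL10A had signals of 3637.4 and 3286.4 against 1501.8 and 2037.3, a 1.98-fold difference. The count depended on the processing. It was 11 with quantile normalization, 6 with a prior not dependent on the mean and 1 with the actin ratio as a covariate, and 1 of the 46 was called in each direction on the plasmid arrays. It was 10 without the first ZR75-1 control array, and 11 and 13 without the first and second SKBR3-labelled control. Ribosomal protein genes have many near-identical pseudogenes, so their probe sets can share signal.

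Genes outside these lists also stood among the 15 largest in each direction. ASS1, which makes argininosuccinate for arginine synthesis, had signals of 1398.0 and 1290.9 in ZR75-1 and 27.9 and 39.6 in the SKBR3-labelled cells. EEF1A2, the elongation factor isoform of muscle and neurons, had 2328.6 and 2413.2 against 63.9 and 65.8. These were 40.4-fold and 36.6-fold differences in favour of ZR75-1. DKK1, a secreted Wnt antagonist, had 1532.1 and 1749.6 in the SKBR3-labelled cells and 28 and 16.3 in ZR75-1, a 76.6-fold difference. PRSS23, a serine protease, PHLDA1, a pleckstrin-like protein, and SRGN, the proteoglycan serglycin, were at least 45-fold, 36.9-fold and 30.6-fold higher in the SKBR3-labelled cells. BASP1, a membrane-bound signalling protein of nerve endings, was 27.1-fold higher there. NT5E, the CD73 nucleotidase, which is on the mesenchymal marker list, was 21.8-fold higher there.

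Markers of other cell types lay partly under the floor. Of those on the array, 7 of 11 leukocyte, 8 of 10 endothelial, 8 of 9 hepatocyte and gut, 4 of 5 prostate and kidney, 4 of 9 fibroblast, 4 of 8 melanocyte and neural crest and 3 of 7 smooth and skeletal muscle markers were under 17.6 on all 4 control arrays. By its definition that floor lies above about 40% or more of the probe sets of each array. The share of all genes under it on all 4 arrays was not counted, so these counts have no background beside them. Summed signals of the leukocyte list were 173 and 207 in ZR75-1 and 124 and 80 in the SKBR3-labelled cells, and of the fibroblast list 103 and 110 against 121 and 61. PTPRC, CD14, CDH5, LUM, PDGFRA and SOX10, chosen from these lists after their values were seen, were under the floor on all 4 control arrays. Other members rose above it on at least 1 control array. Among them were CD3D, CD3E and MS4A1 of the leukocyte list and COL1A1, COL1A2 and THY1 of the fibroblast list. COL1A1 read 50.4 and 33.6 in ZR75-1 and was called higher there, a call lost without single arrays as given above. CORO1A, an actin regulator of leukocytes, was called higher in ZR75-1, with 95.4 and 142.4 against 7.3 and 7.8. MITF, the melanocyte regulator, was called higher in the SKBR3-labelled cells, with 84.0 and 78.2 against 21.0 and 0.9. MITF lost its call without the second ZR75-1 control (adjusted p = 0.0979) or without either SKBR3-labelled control (0.0719 and 0.0678). TNNT1, a skeletal muscle troponin, was called higher in ZR75-1, with 146.3 and 230.8 against 88.7 and 95.9 (adjusted p = 0.00425). PAX8, a factor of kidney and thyroid, was called higher in the SKBR3-labelled cells, with 96.5 and 84.6 against 66.0 and 34.1 (adjusted p = 0.0431). PAX8 lost its call without the second ZR75-1 control (0.291), the first or second SKBR3-labelled control (0.153 and 0.0845), the second ZR75-1 plasmid array (0.0514) or either SKBR3-labelled plasmid array (0.059 and 0.0629). In bulk RNA, fewer cells of a type and less RNA per cell cannot be told apart. SCGB2A2, SCGB1D2 and CRIP1, all bright in ZR75-1, were under the floor on both SKBR3-labelled control arrays, while TFF1 and GATA3 were above it there. SCGB2A2, SCGB1D2 and CRIP1 were named for their large gaps in this same comparison. Mixing of cells was not tested.

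The line differences were measured again on the plasmid arrays, which share no array with the controls. Of 6251 probe sets, 2074 (33.2%) were called there, and the 1645 called in the same direction as in the controls were 65.4% of the control calls and 79.3% of the plasmid-array calls. In all, 2381 of the 2516 kept their sign, and 3 were called in opposite directions. Both contrasts came from the same fit, with a shared spread estimate and filter for each probe set, so the calls are not independent. Luminal secretory genes were called higher in ZR75-1 for 21 of 28 on the plasmid arrays and junction genes for 19 of 38. Mesenchymal markers were called higher in the SKBR3-labelled cells for 29 of 41. CDH1 read 1292.9 and 1508.4 against 58.1 and 54.8, and VIM 25.7 and 0.4 against 3675.6 and 3646.2, so the gaps on the plasmid arrays went the same way. ERBB2 was again higher in ZR75-1 (log2 1.38, adjusted p = 0.00455).

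**Figure D4:**
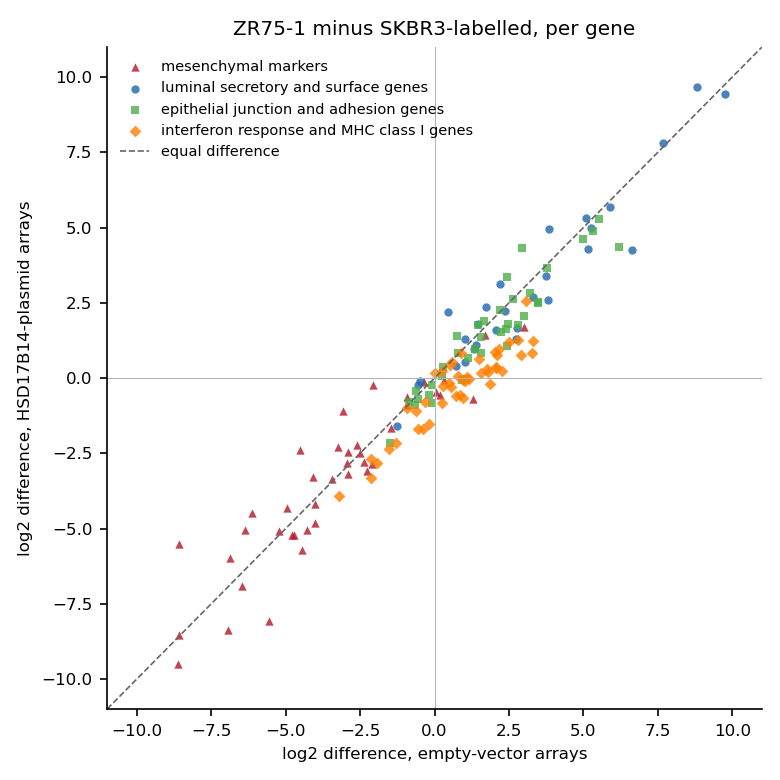
Log2 difference of ZR75-1 minus SKBR3-labelled cells on the empty-vector arrays (x axis) and on the HSD17B14-plasmid arrays (y axis), 1 point per tested gene of 4 lists, with a dashed line of equal difference. Luminal secretory, junction and mesenchymal genes scatter around the line, while most interferon genes lie below it, from a median of 0.87 on the x axis to -0.01 on the y axis.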

How the data were processed

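The deposited values are signal intensities on a linear scale, 1 per probe set and array, made by the authors with MAS5 (submitters' processing notes; version not given in the sources used here). Each array has a 2% trimmed mean of 100.1. Signals under 1, which were 2.41% to 7.13% per array, were set to 1 before taking log2. Array medians of log2 ran from 4.39 to 4.75, so the scaling was kept. Of 8746 probe sets, 7840 have 1 gene symbol in the platform annotation, 388 several and 518 none; 7838 gene IDs matched RefSeq, which changed 0 symbols. A gene stands for its single-symbol probe set of highest mean log2. The test took probe sets that exceeded the 40th percentile of their array, between 12.1 and 17.6, in 2 or more of the 8 arrays. The highest of these percentiles is the common floor.

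limma 3.58.1 (R 4.3.3) fitted 4 group means over the 8 arrays using eBayes with trend, where the prior follows the mean signal (residual df 4, prior df 7.39, median SD 0.361). Tests were two-sided, with Benjamini-Hochberg adjustment over 6251 probe sets and calls under 0.05. The number of arrays limits the precision. A check of the fit on simulated data used normal noise and few changed probe sets, unlike these arrays, so it gives no support for the calls. Figures used matplotlib 3.10.9 (Python 3.11.15).

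The comparison, the 31 gene lists and the naming rule were chosen with earlier results of these data known, so list counts are descriptions. Some genes, such as ERBB3, AXL, GAS6, IGFBP7 and CD44, are on several lists and count in each, so the lists are not separate. The rule took the 15 largest floored differences per direction among called genes without overlap, and up to 10 members of each list by absolute moderated t. It also took a set of fixed lineage genes with all keratins, and every 17q12, luminal and mesenchymal factor. Keratins, 17q12 genes and factors that were not tested are named only in part. ANXA4, CALD1, CLDN3, CNN3, CYP1B1, IRS1, MSN, MYL9, S100A10, TAGLN and UCHL1 are named outside the rule, after their values were seen. So are PTPRC, CD14, CDH5, LUM, PDGFRA and SOX10. Of 78 genes with several tested probe sets, 2 were called in opposite directions and 26 by only some; none of these is covered by the naming rule. Alternatives covered normalization, centring, filters, pseudocount, floor, prior, replicate block, arrays in the fit, Bacillus spike-in level, actin 3'/5' ratio, averaging probe sets and leaving out each array.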

Additional observations from a re-analysis of the deposited data

Results flagged for a closer look

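The difference between the lines changed with the plasmid for 39 probe sets, by limma's test of the difference between the empty-vector and plasmid contrasts. The count was 7 with median centring, and 0 with the actin ratio as a covariate or with a prior not dependent on the mean, so each adjusted p below holds for the fit as described. Of the 39, 27 belong to the gene lists. Within the interferon list the adjusted p of that difference was 0.00106 for MX1, 0.00111 for OAS3, 0.00142 for OAS1, 0.00518 for UBE2L6, 0.00601 for USP18, 0.0108 for OAS2, 0.0167 for IFI44L, OASL and SP110, 0.025 for IFITM1, 0.0319 for BST2, 0.0335 for HLA-C, 0.0373 for ISG20, 0.0375 for TRIM21, 0.0413 for PSMB9 and 0.0444 for IRF7. OAS2, IFI44L, IFITM1, BST2, HLA-C, TRIM21, PSMB9, IRF7 and ACTN4 lie outside the naming rule and are named because of these values. OAS3 had signals of 631.3 and 609.6 in ZR75-1 and 118.4 and 143.8 in the SKBR3-labelled cells with empty vector, and 553.2 and 508.0 against 459.0 and 452.1 with the plasmid. HLA class I genes are alike in sequence, so the HLA-C probe set may share signal with its relatives.

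IGFBP2 changed from a log2 line difference of 9.23 with empty vector to 4.01 with the plasmid (adjusted p = 0.00111). Its SKBR3-labelled control signals were 1.4 and 0.7, under the floor. CSRP2 passed the test (0.0108) on ZR75-1 signals of 0.6 and 1.1 with empty vector and 16.4 and 13.5 with the plasmid, all under the floor and so without order, while the SKBR3-labelled cells read 265.5 and 317.2, then 294.7 and 314.8. S100A9 (0.0108), EPHX1 (0.0167), MUC1 (0.0176) and S100A11 (0.0444) had a smaller ZR75-1 excess with the plasmid, S100A9 and MUC1 from SKBR3-labelled control signals under the floor. IGFBP4 (0.0204) had a larger excess in the SKBR3-labelled cells with the plasmid, NDC80 (0.0444) a smaller one. RPL38 (0.0204) went from -1.32 to 0.35, ACTN4 (0.0413) from 0.91 to -0.75 and SDC4 (0.0468) from 0.93 to -0.06.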

How the results depend on the processing

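Replicate numbers did not pair the arrays: deviations of same-numbered arrays correlated between -0.0436 and 0.0589. With the number as a replicate block, 1221 and 1302 probe sets were called higher in ZR75-1 and in the SKBR3-labelled cells (1224 and 1292 without it).

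Adjusting for the actin ratio had the widest effect: 727 calls (375 higher in ZR75-1, 352 in the SKBR3-labelled cells), 653 shared with the plasmid arrays, and 15 luminal secretory, 11 estrogen target, 14 mesenchymal, 7 matrix, 10 actin, 6 caveolae, 16 interferon, 8 mitosis, 1 ribosomal and 3 respiratory chain genes in the leading direction. The junction median became 2.01. MSX2 turned to -1.80 and SOX4 to -0.11, neither called, and 150 of 225 named called genes kept their call. The cause was not tested. The prior not dependent on the mean left 6 ribosomal and 13 respiratory chain calls, and quantile normalization 11 ribosomal. With log2 of the signal plus 32 the medians became 1.62 (secretory), 0.88 (junction) and -1.45 (mesenchymal), a compression that the added constant makes. Without a filter they were 2.13 (secretory) and -2.55 (mesenchymal), with the 60th percentile filter -4.02 and with signals raised to the floor -2.02 (both mesenchymal).

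The count of changed line differences (39) was 7 with median centring, 20 without a filter, 67 with log2 of the signal plus 32, 0 with the prior not dependent on the mean, and 0 with the actin covariate. Leaving out 1 array at a time gave 5 to 42 of these, 10 to 25 ribosomal calls, a secretory median of 2.12 to 2.69 and a mesenchymal median of -3.66 to -3.11. Of 225 named called genes, 20 lost their call in at least 1 of these 8 fits. Signals under the floor have no order, which limits 210 genes called higher in ZR75-1 and 233 in the SKBR3-labelled cells to lower bounds.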
